A study of Mus musculus with 22 samples.

Results

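The laminin chain and integrin subunit genes were described across all 22 arrays of a study of mouse pluripotent cell lines. Genes were taken by symbol, as laminin alpha, beta and gamma chains and as integrin alpha and beta subunits, with the probe set of highest mean standing for each gene. This gave 36 of the 19938 genes measured through a probe set with 1 symbol, namely 10 laminin chains, 18 integrin alpha subunits and 8 integrin beta subunits. Itgam was read from its own probe set, since 3 others are listed jointly with Rpl35.

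Laminins are trimers of an alpha, a beta and a gamma chain that are secreted and polymerise into basement membranes. Integrins are receptors of an alpha and a beta subunit that bind laminin, collagen, fibronectin or other ligands outside the cell and join them to the actin cytoskeleton inside it. In the early embryo the trimer of Lama1, Lamb1 and Lamc1 is a main product of primitive endoderm, and embryonic stem cells bind laminin mostly through the integrin of Itga6 and Itgb1.

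Embryonic germ (EG) lines are pluripotent lines made from primordial germ cells, here of E8.5 embryos, and embryonic stem (ES) lines come from the embryo before implantation. All lines had the mixed background that is labelled 129SvEv x Oct4-delta-PE-GFP transgenic, and the embryos are described as genetically identical. There were 4 EG lines in fetal calf serum (EG FCS, 1 female), 4 EG lines kept in FCS for 2 days and then in 2i (EG 2is, 2 female), 4 EG lines derived directly in 2i (EG 2i, 3 female), 5 ES FCS lines and 5 ES 2i lines (2 female in each group). FCS medium held LIF, and these cells grew on a feeder layer of mouse embryonic fibroblasts. The 2i cells had N2B27 medium with LIF and 2 inhibitors, PD0325901 against MEK and CHIR99021 against GSK3, and grew on laminin at 10 µg/ml. Medium, inhibitors, feeder layer and laminin coating therefore changed together and cannot be told apart. Established ES lines were also moved between the cultures, so an ES sample in FCS and one in 2i may be the same line. The cell type label reads EGCs for all 10 ES samples, while title and source name call them ES, and they were analysed as ES lines. Nothing more is labelled on separate cultures, so the p-values reflect only how these samples spread.

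Values are log2 RMA expression levels, and a probe's level is not set against that of another gene. All differences are fitted log2 differences from limma with terms for group, labelled batch and labelled sex, and the word called stands for a Benjamini-Hochberg adjusted p below 0.05 over all genes. Batch 1 held 16 arrays and batch 2 held 6, all ES lines. Array medians lay between 5.54 and 5.62, and arrays of 1 group correlated at 0.982 to 0.998. Background was read from Eif2s3y, a gene of the Y chromosome, which reached 4.88 at most in female lines. Uty and Kdm5d, also of the Y chromosome, reached 4.89 and 4.98 there, so the level used is the lowest. Of the 36 genes, 8 had every group mean at or below 4.88 (Lama2, Lama4, Itga2, Itga11, Itgam, Itgax, Itgb2 and Itgb6), which is 22.2% against 18.9% of all genes. At the Kdm5d level Itga4 and Lamc3 would join them, with highest group means of 4.91 and 4.94. The pluripotency markers averaged between 10.2 and 10.6 in every line, over 12 genes, while single markers moved both ways. In EG 2i lines 3 were higher and 3 lower (50% called against 23.9% of all genes). In ES 2i lines 2 were higher and 4 lower (50% against 31.6%). Among these markers Utf1 (−2.65 in EG 2i and −1.90 in ES lines), Tdgf1 (−0.63 and −0.41) and Dnd1 (−0.84 and −0.48) were lower. Sall4 was lower in ES lines (−0.42) and Esrrb higher in EG 2i lines (0.34). Tfcp2l1 and Nanog were higher (1.44 and 0.73 in EG 2i, 1.35 and 0.60 in ES lines). As the arrays are bulk samples, fewer cells of a type and less RNA per cell cannot be told apart. A list of 21 feeder fibroblast markers, of which 20 were measured, averaged 6.29 to 7.04 in EG FCS and 6.28 to 6.98 in ES FCS lines against 5.66 to 5.80 in EG 2is, 5.68 to 5.80 in EG 2i and 5.62 to 5.81 in ES 2i lines. At the background level or below were 3 of these 20 markers in EG FCS and 2 in ES FCS lines, against 6 in EG 2i and 8 each in EG 2is and ES 2i lines. Of the 20, 0 were higher and 10 lower in EG 2i lines (50% called against 23.9% of all genes). In ES lines 13 were lower and 2, Sparc (0.62) and Timp1 (0.53), higher (75% against 31.6%). Acta2, Thbs1 and Tagln led the falls, with Acta2 lower in 2i by −4.50 in EG and −4.05 in ES lines. Of 11 trophoblast markers 0 were higher and 2 lower in EG 2i lines (18.2% called against 23.9% of all genes). In ES 2i lines 0 were higher and 3 lower (27.3% against 31.6%). The keratin Krt18 led these falls (−2.19 and −2.16). Of 8 endothelial markers 2 were higher and 2 lower in EG 2i and 3 higher and 1 lower in ES 2i lines. That is 50% called in each, against 23.9% and 31.6% of all genes, led by Vwf (0.95 and 1.19) and Pecam1 (0.84 and 0.88). The part of feeder RNA or of other cell types in the differences given here was not tested.

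Promoter windows of 250 bases before an annotated start were given by RefSeq (GRCm38.p6) for 23 of the 36 genes, in 26 windows. In 14 of the 26 the annotated start lies inside the gene's own interval or the window reaches into it, and those windows, Lamb1's among them, are not printed. Shown are 2 windows that end at the outer start of the gene and belong to subunits called in all 3 comparisons of 2i with FCS. That of Itgb1, which was lower in 2i, lies on chr8:128685404-128685653, and that of Itgb5, which was higher, on chr16:33829415-33829664, both on the plus strand. Capitals mark GGGCGG, the GC box bound by Sp and KLF factors, or its reverse complement.
Itgb1: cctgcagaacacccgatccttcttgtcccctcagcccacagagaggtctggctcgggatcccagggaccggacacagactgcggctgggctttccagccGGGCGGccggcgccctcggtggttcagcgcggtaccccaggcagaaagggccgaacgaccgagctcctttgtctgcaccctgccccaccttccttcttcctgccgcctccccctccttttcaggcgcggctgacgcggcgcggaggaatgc
Itgb5: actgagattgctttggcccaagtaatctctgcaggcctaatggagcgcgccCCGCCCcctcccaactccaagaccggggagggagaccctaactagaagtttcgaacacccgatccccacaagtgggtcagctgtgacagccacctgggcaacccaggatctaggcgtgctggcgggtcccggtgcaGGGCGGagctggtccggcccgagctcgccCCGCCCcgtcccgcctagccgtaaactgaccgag
The GC boxes begin at −151 from the start in Itgb1 and at −199, −63 and −34 in Itgb5. On either strand, GGGCGG was found in 9 of the 26 windows and in 32.7% of all 32851 windows of this length. The AP-1 site TGANTCA was found in 1 of 26 (6.75% of all), the TCF/LEF core CTTTGA in 4 of 26 (13.8% of all) and the CArG box of serum response factor in 2 of 26 (1.47% of all). None of the last 3 lies in either window shown. Itga1, lower in all 3 comparisons, also has a window that ends at its outer start and is not printed. It holds CTTTGA at −113 and no GC box. A match describes these letters and is no evidence of a bound site.

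In EG lines, 9 of the 36 genes changed between FCS and 2i, 3 higher and 6 lower, which is 25% against 23.9% of all genes. In EG 2is lines 12 of 36 differed from the same EG FCS lines, 5 higher and 7 lower (33.3% against 25.6% of all genes). In ES lines 15 of 36 changed, 7 higher and 8 lower (41.7% against 31.6% of all genes). The median difference over the 36 genes was −0.04 in EG 2i and −0.04 in ES 2i lines, beside 0.01 and 0.00 over all genes. Lamb1, Itgb1, Itga1 and Itga9 were lower and Lama3 and Itgb5 higher in all 3 comparisons, and 0 genes were called in opposite directions. The EG 2i and EG 2is comparisons share their FCS lines, so this is no independent support. Called in at least 1 of the 3 were 21 genes, and 15 in none. The shares of all genes for these joint counts were not worked out, so they show nothing particular to the 36 genes. The uncalled genes were Lama4, Lama5, Lamb3, Lamc3, Itga2, Itga3, Itga4, Itga7, Itga10, Itgad, Itgae, Itgam, Itgax, Itgb2 and Itgb6.

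**Figure D1:**
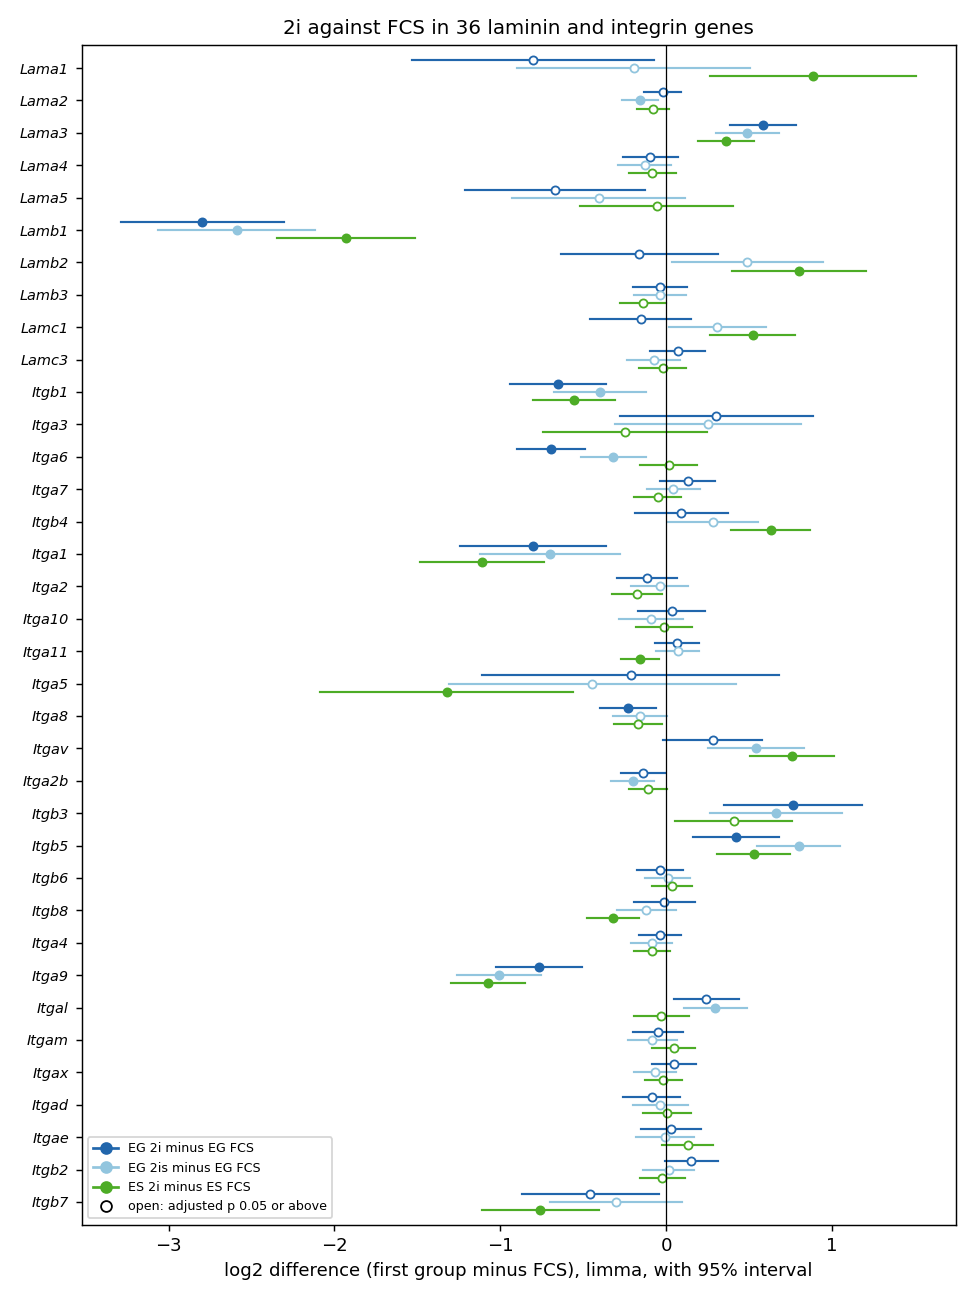
Fitted log2 difference of 2i (or 2is) minus FCS for the 36 genes, with limma's 95% interval as the bar; filled points are called, open points are not. Lamb1 lies farthest to the left in all 3 comparisons, at −2.80, −2.59 and −1.93.

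Lamb1, the beta chain of most embryonic laminins, was lower in 2i. Its log2 level was 9.29, 8.94, 8.87 and 9.58 in EG FCS lines and 8.86, 9.15, 8.70, 9.06 and 9.14 in ES FCS lines. In 2i it was 6.26, 6.32, 5.45 and 6.51 in EG 2i lines, 6.87, 6.57, 6.47 and 5.94 in EG 2is lines, and 6.95, 7.51, 6.09, 7.54 and 7.17 in ES 2i lines. Every 2i line therefore lay below every FCS line of either origin. Lamb1 fell in all 3 comparisons, with −2.80 in EG 2i (SE 0.23, 6.94-fold, limma adjusted p = 1.1e-07), −2.59 in EG 2is (SE 0.23, 6.02-fold, adjusted p = 1.2e-07) and −1.93 in ES lines (SE 0.20, 3.81-fold, adjusted p = 5.2e-07). Within batch 1 the ES fall was −1.77 and within batch 2 it was −2.03, both called. No 2i group mean was at the background level.

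The other chains of this trimer took other courses. Lama1, its alpha chain, was 6.91 ± 0.40 (SD, n = 5) in ES FCS and 7.80 ± 0.35 (SD, n = 5) in ES 2i lines, a rise of 0.89 (SE 0.30, adjusted p = 0.0272). That call was lost on leaving out ES FCS line 2, 3 or 5 or ES 2i line 1, 4 or 5 (adjusted p 0.0564 to 0.0918). Within batch 1 the Lama1 difference was 0.69 (adjusted p = 0.419) and within batch 2 it was 1.02 (adjusted p = 0.00193). In EG lines Lama1 stood at 7.57, 7.17, 7.44 and 8.95 in FCS and at 6.67, 7.22, 7.12 and 6.83 in 2i, a difference of −0.80 that did not pass (adjusted p = 0.106). EG FCS line 4 was the high one.

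Lamc1, the gamma chain of most laminins, was 9.80, 9.55, 9.67, 9.65 and 9.64 in ES FCS and 10.2, 10.5, 10.1, 10.1 and 10.0 in ES 2i lines. These groups did not overlap, and Lamc1 rose by 0.52 (SE 0.12, 1.44-fold, adjusted p = 0.00264). Within batch 1 it was 0.66 (adjusted p = 0.0688) and within batch 2 it was 0.43 (adjusted p = 0.0024). In EG lines it was 9.71, 9.59, 9.78 and 10.4 in FCS, 9.45, 9.88, 9.67 and 9.74 in 2i and 10.2, 10.1, 10.4 and 9.92 in 2is, with overlapping groups. The EG 2i difference of −0.15 and the EG 2is difference of 0.31 did not pass, but without EG FCS line 4 the EG 2is difference was 0.47 (adjusted p = 0.00475).

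Lamb2, a beta chain that can take the place of Lamb1, was 6.81 ± 0.23 in ES FCS and 7.61 ± 0.13 in ES 2i lines (SD, n = 5 each). It rose by 0.80 (SE 0.19, adjusted p = 0.00298), with 0.82 within batch 1 (adjusted p = 0.149) and 0.79 within batch 2 (adjusted p = 0.00135). In ES lines Lamb2 was thus higher while Lamb1 was lower. EG lines showed no call for Lamb2, with −0.16 in EG 2i (adjusted p = 0.677) and 0.49 in EG 2is lines (adjusted p = 0.112). Without EG FCS line 4 the EG 2is difference was 0.70 (adjusted p = 0.0116), and without EG 2is line 4 it was 0.63 (adjusted p = 0.0446).

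EG FCS line 4 had the highest level of the 4 EG FCS lines for Lama1, Lamb1, Lamb2 and Lamc1. Averaged over 14 primitive endoderm markers it stood at 6.57, with the other EG FCS lines at 6.15, 6.09 and 5.94, ES FCS lines at 5.68 to 5.91, EG 2i lines at 5.62 to 5.77, EG 2is lines at 5.56 to 5.66 and ES 2i lines at 5.41 to 5.79. In EG 2i lines 0 of these 14 markers were higher and 3 lower (21.4% against 23.9% of all genes), and in EG 2is lines 0 were higher and 6 lower (42.9% against 25.6% of all genes). The 3 in EG 2i were Lrp2 (−1.74) and Cubn (−1.86), endocytic receptors, and Dab2 (−1.56), their adaptor, and EG 2is lines had these 3 with Gata6, Pdgfra and Amn. In ES lines Lrp2 was lower (−1.84) and Sparc and Hnf4a were higher (0.62 and 0.24), which is 21.4% called against 31.6% of all genes. Gata4 and Gata6, defining factors of that lineage, were 6.33 and 6.91 in EG FCS line 4. Neither was called in EG 2i or ES lines, and their levels in the other lines are not given here. The feeder markers were highest there too, at 7.04. The part of such cells in the laminin differences was not tested.

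Of the remaining alpha chains, Lama3 of epithelial laminin rose in all 3 comparisons. It was 5.48 to 5.50 in EG FCS, 5.92 to 6.35 in EG 2i and 5.72 to 6.20 in EG 2is lines, with no overlap. The rise was 0.59 in EG 2i (SE 0.10, 1.50-fold, adjusted p = 0.000149) and 0.49 in EG 2is lines (adjusted p = 0.000483). In ES lines it was 0.36 (adjusted p = 0.00172), with 0.46 and 0.29 within batches 1 and 2, and the groups overlapped. Lama5, the alpha chain that stem cells commonly make themselves, was at 8.87 ± 0.09 (SD, n = 4) in EG FCS and 8.33 ± 0.68 (SD, n = 4) in EG 2i lines. The EG 2i difference of −0.67 did not pass (adjusted p = 0.0684), but did without EG 2i line 2 (−0.81, adjusted p = 0.0329) or 3 (−0.84, adjusted p = 0.0239). In ES lines the Lama5 difference was −0.06 (95% interval −0.52 to 0.40). Lama2 of muscle laminin was called lower in EG 2is lines (−0.16, adjusted p = 0.0289), but every group mean lay at background, and the call was lost on leaving out EG FCS line 2 or 4 or EG 2is line 3 or 4.

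**Figure D2:**
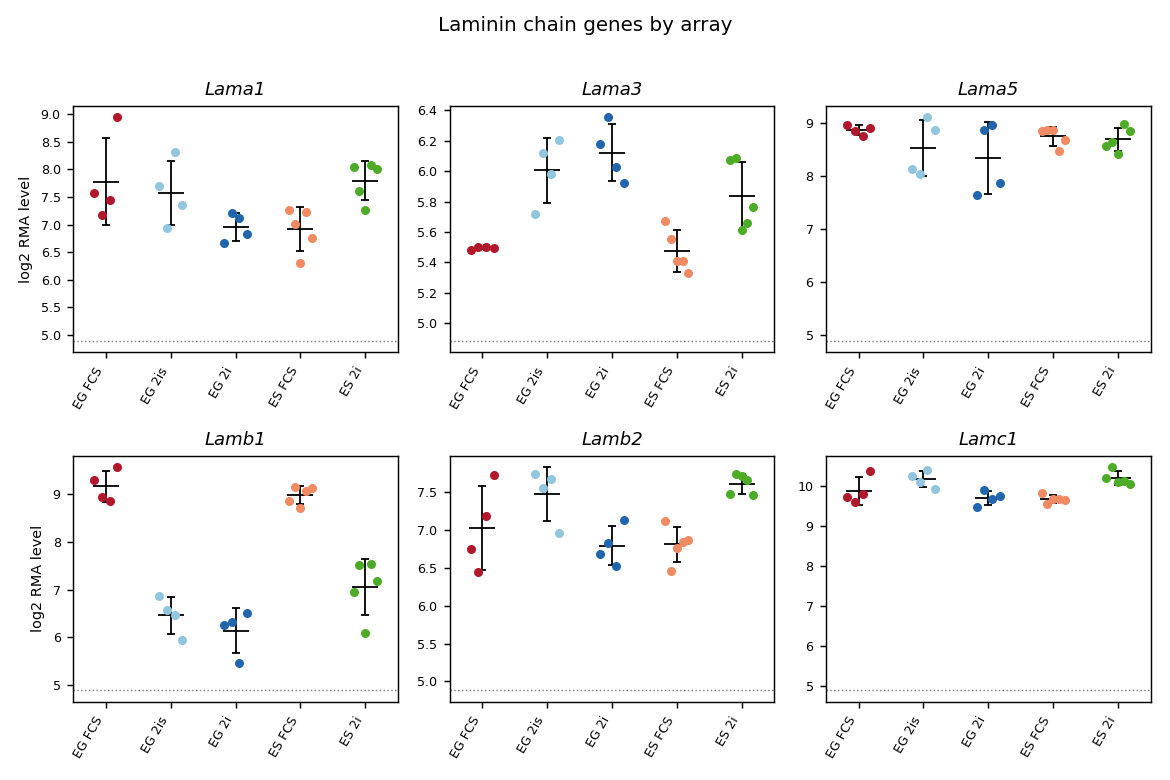
log2 RMA level of 6 laminin chain genes in each array by group, each panel on its own scale; bars are mean and SD, and the dotted line is the highest Eif2s3y level in female lines, 4.88. Lamb1 separates all FCS from all 2i lines, and EG FCS line 4 is the highest EG FCS point for Lama1, Lamb1, Lamb2 and Lamc1.

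Itgb1, the beta subunit shared by most laminin, collagen and fibronectin receptors, was lower in 2i. Its level was 9.87 ± 0.11 in EG FCS and 9.29 ± 0.25 in EG 2i lines (SD, n = 4 each), and 9.87 ± 0.12 in ES FCS and 9.32 ± 0.28 in ES 2i lines (SD, n = 5 each). It fell, with −0.65 in EG 2i (SE 0.14, 1.57-fold, adjusted p = 0.00178) and −0.55 in ES lines (SE 0.12, 1.47-fold, adjusted p = 0.00111). Within ES batches the values were −0.68 and −0.47, both called. The ES groups overlapped through ES 2i line 3 at 9.77. In EG 2is lines Itgb1 fell by 0.40 (adjusted p = 0.0334), a call lost on leaving out any of 6 of the 8 lines (EG FCS 1, 3 or 4, EG 2is 1, 2 or 3), with adjusted p 0.0542 to 0.118.

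Itga6, the laminin-binding partner of Itgb1 and Itgb4, was lower in EG 2i than in ES 2i lines. It was 9.37, 9.51, 9.43 and 9.31 in EG FCS, 8.27, 8.80, 8.62 and 8.76 in EG 2i and 9.21, 9.10, 8.86 and 8.99 in EG 2is lines. ES lines had 9.36, 9.47, 9.02, 9.31 and 9.22 in FCS and 9.17, 9.57, 9.16, 9.39 and 9.17 in 2i. All EG 2i lines lay below all other arrays. Itga6 fell in EG lines, with −0.69 in EG 2i (SE 0.10, 1.62-fold, adjusted p = 3.4e-05) and −0.32 in EG 2is lines (SE 0.09, adjusted p = 0.0153; 0.0791 without EG FCS line 1). In ES lines the difference was 0.02 (95% interval −0.16 to 0.19), and −0.04 and 0.05 within batches 1 and 2. The EG 2i response minus the ES response was −0.71 (SE 0.13, adjusted p = 0.0109), the one call among the 36 genes (2.78% against 1.44% of all genes, of which 0.873% were lower). It was kept on leaving out any single line and lost with batch 1 alone (−0.65, adjusted p = 0.291), where 0 genes in all were called.

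The other laminin receptors were Itga3, Itga7 and Itgb4. Itgb4, the subunit of hemidesmosomes, was 5.86, 5.70, 5.54, 5.48 and 5.32 in ES FCS and 6.05, 6.20, 5.80, 6.48 and 6.53 in ES 2i lines. It rose by 0.63 (SE 0.11, 1.55-fold, adjusted p = 0.000247), with 0.34 within batch 1 (adjusted p = 0.0828) and 0.82 within batch 2 (adjusted p = 0.0147). The groups overlapped only in ES 2i line 3, below ES FCS line 1. In EG 2i lines Itgb4 differed by 0.09 (adjusted p = 0.693) and in EG 2is lines by 0.28 (adjusted p = 0.122). Itga3 differed by 0.30 in EG 2i and −0.25 in ES lines, and Itga7 by 0.13 and −0.05, and neither passed.

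Among the collagen receptors, Itga1 was lower in 2i. Its level was 5.43, 5.26, 6.002 and 5.89 in EG FCS and 5.56, 5.36, 6.26, 6.07 and 6.02 in ES FCS lines. In 2i it was 4.77, 4.98, 4.80 and 4.86 in EG 2i, 4.96, 4.78, 5.12 and 4.96 in EG 2is, and 5.17, 4.87, 4.32, 4.84 and 4.52 in ES 2i lines, so that every 2i line lay below every FCS line. It fell in all 3 comparisons, with −0.80 in EG 2i (SE 0.21, 1.74-fold, adjusted p = 0.008), −0.70 in EG 2is (adjusted p = 0.0141) and −1.11 in ES lines (SE 0.18, 2.16-fold, adjusted p = 7.5e-05). The EG 2is call was lost without EG FCS line 3 (adjusted p = 0.0506) or EG 2is line 2 (adjusted p = 0.0519). Within batch 1 the ES difference was −0.44 (adjusted p = 0.198) and within batch 2 it was −1.56 (adjusted p = 0.000794). As 2 of the 2i group means were below the background level, background limits the size of these falls. Itga10 did not pass in any of these comparisons, and Itga2 and Itga11 lay at background in every group. The ES difference of Itga2, −0.18, passed only without ES FCS line 2 (adjusted p = 0.00153) or ES 2i line 1 (adjusted p = 0.0357) among the fits that left out a line. Itga11 was called in ES lines with −0.16 (adjusted p = 0.0336), a call lost on leaving out any of 6 of the 10 lines (ES FCS 3, 4 or 5, ES 2i 2, 3 or 5).

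Itga9, a receptor for tenascin and osteopontin, was at 5.72, 5.96, 5.76 and 5.96 in EG FCS and at 5.77, 5.70, 5.99, 6.14 and 6.09 in ES FCS lines. In 2i it was 5.16, 4.88, 5.14 and 5.10 in EG 2i, 4.89, 4.75, 4.91 and 4.79 in EG 2is and 5.13, 5.10, 4.73, 4.61 and 4.75 in ES 2i lines. No 2i line reached an FCS line. Its falls were −0.77 in EG 2i (SE 0.12, 1.70-fold, adjusted p = 0.000157), −1.01 in EG 2is (SE 0.12, 2.01-fold, adjusted p = 4.5e-06) and −1.07 in ES lines (SE 0.11, 2.10-fold, adjusted p = 3.4e-07). Within ES batches the falls were −0.62 and −1.37, both called. The EG 2is and ES 2i means lay at background, which limits these folds. Its relative Itga4 was near background, at 4.75 to 4.91 over the group means, and was not called.

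The receptors of the fibronectin and vitronectin type, which bind the RGD motif, went in different directions. Itga5, the fibronectin receptor, was 8.38, 7.26, 8.15, 7.90 and 7.90 in ES FCS and 6.78, 7.82, 5.23, 6.31 and 6.83 in ES 2i lines. It fell by 1.32 (SE 0.37, 2.50-fold, adjusted p = 0.0082), with ES 2i line 2 inside the FCS range. Within batch 1 it was −0.52 (adjusted p = 0.64) and within batch 2 it was −1.86 (adjusted p = 0.00801). EG lines had 7.46, 7.62, 7.73 and 7.78 in FCS, 7.38, 6.96, 6.56 and 7.53 in 2i and 7.58, 8.38, 5.74 and 6.46 in 2is. EG 2is lines spread widely around the FCS lines, and neither EG difference passed (−0.21, adjusted p = 0.781, and −0.44, adjusted p = 0.502).

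The vitronectin receptor subunits Itgav and Itgb5 were higher in 2i. Itgb5 was 8.01 ± 0.22 in EG FCS, 8.41 ± 0.21 in EG 2i and 8.80 ± 0.13 in EG 2is lines (SD, n = 4 each), and 7.98 ± 0.15 in ES FCS and 8.51 ± 0.15 in ES 2i lines (SD, n = 5 each). It rose by 0.42 in EG 2i (adjusted p = 0.0171), by 0.80 in EG 2is (SE 0.12, 1.74-fold, adjusted p = 5.0e-05) and by 0.53 in ES lines (SE 0.11, 1.44-fold, adjusted p = 0.000616). The EG 2i call was lost on leaving out lines 1 or 2 of EG FCS or lines 2 or 4 of EG 2i (adjusted p 0.0522 to 0.071). Within ES batches Itgb5 gave 0.60 and 0.48, both called. Itgav was 8.17 ± 0.27 in ES FCS and 8.93 ± 0.10 in ES 2i lines (SD, n = 5 each). It rose by 0.76 in ES (SE 0.12, 1.69-fold, adjusted p = 7.2e-05) and by 0.54 in EG 2is lines (adjusted p = 0.00588), while 0.28 in EG 2i lines did not pass (adjusted p = 0.173). Within ES batches Itgav gave 0.54 (adjusted p = 0.082) and 0.90 (adjusted p = 0.00047).

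Itgb3, another partner of Itgav and also of the platelet subunit Itga2b, rose in EG lines. It was 5.34 ± 0.13 in EG FCS, 6.24 ± 0.35 in EG 2i and 6.07 ± 0.32 in EG 2is lines (SD, n = 4 each), with no overlap of either 2i group with FCS. The rises were 0.77 (SE 0.20, 1.70-fold, adjusted p = 0.00759) and 0.66 (adjusted p = 0.0137). The EG 2i call was lost without EG FCS line 1 (adjusted p = 0.0633) or EG 2i line 4 (adjusted p = 0.0715), and the EG 2is call without EG FCS line 1 (adjusted p = 0.0847). In ES lines the difference of 0.41 did not pass (adjusted p = 0.0757), but did without ES FCS line 1 or ES 2i line 1 or 5 (adjusted p 0.0295 to 0.0453). The response did not pass as different between EG and ES lines (0.36, adjusted p = 0.545).

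Smaller calls lay near background. Itgb8, a subunit that pairs with Itgav, fell by 0.32 in ES lines (adjusted p = 0.00237), with −0.07 within batch 1 (adjusted p = 0.728) and −0.49 within batch 2 (adjusted p = 0.00348). Itga8 was called in EG 2i lines with −0.23 (adjusted p = 0.0458) and lost on leaving out any of 6 of the 8 lines (EG FCS 1, 3 or 4, EG 2i 1, 3 or 4). In ES lines its −0.17 did not pass, but did without ES FCS line 2 (adjusted p = 0.0385) or ES 2i line 2 (adjusted p = 0.0309). Itga2b was called in EG 2is lines with −0.20 (adjusted p = 0.0202; 0.0596 without EG 2is line 3).

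Of the integrins of leukocytes, Itgb7 fell in ES lines. It was 6.04 ± 0.15 in ES FCS and 5.28 ± 0.18 in ES 2i lines (SD, n = 5 each), with no overlap, a fall of 0.76 (SE 0.17, 1.69-fold, adjusted p = 0.00154). Within batch 1 it was −0.92 (adjusted p = 0.0535) and within batch 2 it was −0.65 (adjusted p = 0.0029). In EG 2is lines Itgb7 was 6.18, 5.79, 4.91 and 5.04, and neither EG difference passed. The EG 2i difference of −0.46 did so without EG 2i line 1 (adjusted p = 0.0384), and the EG 2is difference of −0.30 without EG 2is line 1 (adjusted p = 0.0462). Itgal was called higher in EG 2is lines (0.30, adjusted p = 0.0194), a call lost without EG FCS line 1 (adjusted p = 0.0903) or EG 2is line 2 (adjusted p = 0.105). Its EG 2i difference of 0.24 passed only without EG 2i line 4 (adjusted p = 0.0438). Itgam, Itgax and Itgb2 were at background, and Itgb2 passed in EG 2i lines only without EG 2i line 2 (0.21, adjusted p = 0.0467). Of 9 leukocyte markers measured, 5 in EG 2is, 4 in ES 2i, 3 in EG 2i, 3 in ES FCS and 2 in EG FCS lines were at background. Their mean ranged from 5.51 to 6.12 over all arrays. In ES lines 4 were called higher and 1 lower (55.6% against 31.6% of all genes), and in EG 2i lines 1 higher and 1 lower (22.2% against 23.9%). Among them Laptm5 was higher (1.46 in ES and 0.73 in EG 2i lines), Cd3e was higher in ES lines (1.18) and Coro1a was lower (−0.35 and −0.40). Their part in these differences was not tested.

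**Figure D3:**
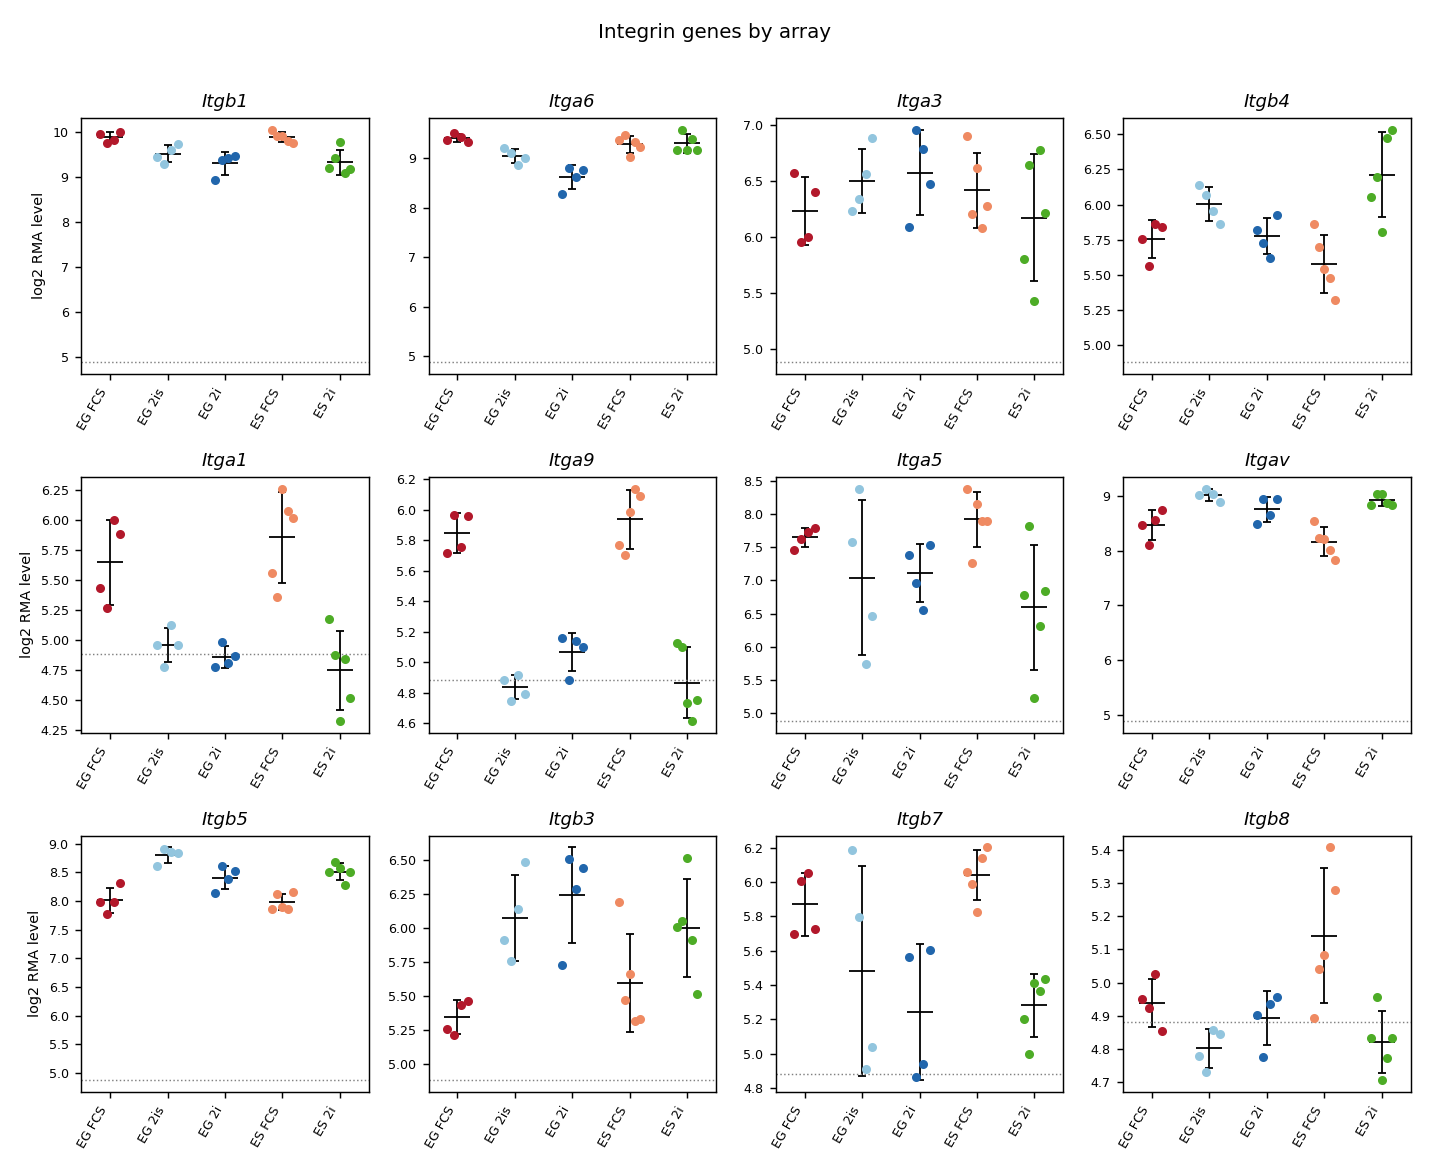
log2 RMA level of 12 integrin genes in each array by group, each panel on its own scale; bars are mean and SD, and the dotted line is the highest Eif2s3y level in female lines, 4.88. Itga6 is lowest in the EG 2i lines, Itga1 and Itga9 reach the dotted line in 2i, and Itga5 spreads widely in EG 2is and ES 2i lines.

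Between EG lines that passed through FCS and EG lines derived in 2i, none of the 36 genes was called by limma, and none of all 19938 genes was either (0%). At an unadjusted p under 0.05 there were 5 of the 36, with Itga6, Lamc1, Itgb5 and Lamb2 higher and Lama2 lower in EG 2is lines. The share of all genes at that level was not counted, so this number shows nothing particular to the 36 genes. The smallest adjusted p was 0.172, for Itga6, whose EG 2is minus EG 2i difference was 0.37 (95% interval 0.18 to 0.57).

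In FCS, EG and ES lines differed in none of the 36 genes at the threshold (0.01% of all genes were called), and 0 had an unadjusted p under 0.05. In 2i, 3 of 36 were lower and 0 higher in EG than in ES lines (8.33% against 3.72% of all genes, of which 2.52% were lower and 1.2% higher). Itga6 was lower by −0.74 (SE 0.10, adjusted p = 0.00117), with no overlap. Lamc1 was lower by −0.57 (SE 0.15, adjusted p = 0.0453), with no overlap, and Lamb1 by −0.90 (SE 0.25, adjusted p = 0.049), with overlap. The Lamc1 call was lost on leaving out any of 8 of the 9 lines (adjusted p 0.0502 to 0.16), and held without EG 2i line 2. The Lamb1 call was lost on leaving out EG 2i line 3 or 4 or ES 2i line 1, 2, 4 or 5 (adjusted p 0.0621 to 0.142). With the EG and ES arrays of batch 1 alone, Itga6 kept its call, and Lamc1 (−0.63, adjusted p = 0.141) and Lamb1 (−1.01, adjusted p = 0.083) did not. Fitted with only the groups compared, none of the 3 was called. Itgb4 was not called (−0.46, adjusted p = 0.078), but was without ES 2i line 3 (−0.51, adjusted p = 0.0357). Between EG 2is and ES 2i lines 0 of 36 were called (0.0451% of all genes). At an unadjusted p under 0.05 there were 4, and the share of all genes at that level was not counted.

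The difference between the EG and the ES response was, beside Itga6, negative for Lama1 (−1.69, adjusted p = 0.0702), Lamb2 (−0.96, adjusted p = 0.106), Lamb1 (−0.87, adjusted p = 0.16) and Lamc1 (−0.67, adjusted p = 0.0816), and none of these passed. Without EG FCS line 2, Lama1 (adjusted p = 0.0477), Lamb2 (adjusted p = 0.0371) and Lamc1 (adjusted p = 0.0499) passed with Itga6. Without EG FCS line 4 the differences were smaller, at −1.34 for Lama1 (adjusted p = 0.092), −0.76 for Lamb2 (adjusted p = 0.159), −0.78 for Lamb1 (adjusted p = 0.251) and −0.52 for Lamc1 (adjusted p = 0.102).

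Groups differed in their share of female lines, and 1 sex term served all cultures. That term called Itgae alone of the 36 genes (0.19 higher in male lines, adjusted p = 0.0477), beside 3.62% of all genes, and the batch term called 0 of the 36 (0.00502% of all genes). With a sex term in each culture, a fit chosen after seeing the data, 3 of the 36 genes were higher in male than in female 2i lines (5.17% of all genes were called) and 0 in FCS lines (0.0251% of all genes). Itga5 was 7.41 in 6 male and 6.44 in 7 female 2i lines, a fitted difference of 1.22 (SE 0.27, adjusted p = 0.015). Lamb1 was 7.03 and 6.21 (difference 0.68, SE 0.17, adjusted p = 0.0297), and Itgb4 was 6.22 and 5.83 (difference 0.32, SE 0.09, adjusted p = 0.0416). In EG 2is lines the 2 male lines had the Itga5 values 7.58 and 8.38 and the 2 female lines 5.74 and 6.46. The sex difference was not called as unequal between 2i and FCS for any of the 36 genes (0% of all genes), with adjusted p = 0.683 for Itga5, and only 3 FCS lines were female. In this fit, 9, 12 and 15 of the 36 genes were called for EG 2i, EG 2is and ES 2i lines against FCS, as many as with 1 sex term. Over all genes it called 4728, 4964 and 6222, against 4764, 5108 and 6298 with 1 sex term.

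The genes that laminins and integrins act with were taken as 4 lists. Of 21 basement membrane partners, 2 were higher and 6 lower in EG 2i lines (38.1% called against 23.9% of all genes) and 2 higher and 4 lower in ES lines (28.6% against 31.6%). Nid1, which links laminin to collagen IV networks, rose by 1.19 in EG 2i (SE 0.25, adjusted p = 0.00154) and by 1.67 in ES lines (SE 0.21, adjusted p = 5.6e-06). Col18a1, a basement membrane collagen, fell, with −1.90 (adjusted p = 1.4e-08) in EG 2i and −1.32 in ES lines (adjusted p = 6.6e-08), and Pxdn, the peroxidase that crosslinks collagen IV, fell, with −1.33 (adjusted p = 1.7e-06) and −1.90 (adjusted p = 1.4e-09). Col4a1, a collagen IV chain, fell, with −1.19 (adjusted p = 7.9e-05) and −0.46 (adjusted p = 0.0283). The median over the list was −0.10 in EG 2i and −0.06 in ES lines.

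Of 8 laminin receptors that are not integrins, 1 was higher and 2 lower in EG 2i lines, and 2 higher and 1 lower in ES lines (37.5% called in each, against 23.9% and 31.6% of all genes). The syndecan Sdc2 rose by 1.15 in EG 2i (SE 0.14, adjusted p = 9.0e-06) and by 1.21 in ES lines (SE 0.12, adjusted p = 3.7e-07), and Sdc1 fell, with −0.35 (adjusted p = 0.0219) and −0.58 (adjusted p = 6.7e-05). Sdc4 rose by 0.69 in ES lines (adjusted p = 0.0108). Dag1, which encodes dystroglycan, fell by 0.20 in EG 2i lines (adjusted p = 0.0342). The list's median was −0.11 in EG 2i and 0.06 in ES lines.

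Of 21 other integrin ligands 17 were measured, with 2 higher and 4 lower in EG 2i (35.3% against 23.9% of all genes) and 5 higher and 6 lower in ES lines (64.7% against 31.6%). Nid1 is counted in this list as well as among the basement membrane partners. Thbs1, or thrombospondin, fell, with −4.24 in EG 2i (SE 0.37, 19.0-fold, adjusted p = 1.7e-07) and −4.28 in ES lines (SE 0.31, 19.4-fold, adjusted p = 7.5e-09), and it is also one of the feeder markers. Tnc, the tenascin that Itga9 binds, fell, with −1.72 (adjusted p = 0.00766) in EG 2i and −2.70 in ES lines (adjusted p = 1.8e-05), to means of 4.86 and 4.32 that lie at background. Ecm1, a matrix glycoprotein, fell, with −1.05 in EG 2i lines (adjusted p = 4.1e-05) and −0.78 in ES lines (adjusted p = 9.5e-05). The median over the 17 was −0.05 in EG 2i and −0.06 in ES lines.

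Of 32 genes of the adhesion machinery inside the cell 29 were measured, with 1 higher and 13 lower in EG 2i and 3 higher and 11 lower in ES lines (48.3% called in each, against 23.9% and 31.6% of all genes). Vcl, which encodes vinculin of focal adhesions, fell, with −0.98 in EG 2i (SE 0.10, adjusted p = 1.5e-06) and −0.77 in ES lines (SE 0.09, adjusted p = 1.4e-06). The actin crosslinkers Actn4 and Flna fell, with −1.07 (adjusted p = 1.7e-07) and −1.08 (adjusted p = 3.8e-07) in EG 2i and −0.61 (adjusted p = 7.6e-06) and −0.52 (adjusted p = 9.0e-05) in ES lines. The adaptor Bcar1 fell, with −0.81 (adjusted p = 4.2e-06) and −0.68 (adjusted p = 2.2e-06), and Cav1, the caveolin of membrane pits, fell, with −0.90 (adjusted p = 0.00123) and −1.28 (adjusted p = 3.5e-06). The list's median was −0.20 in EG 2i and −0.02 in ES lines, beside 0.01 and 0.00 over all genes. Fibroblasts express such genes too, and most feeder markers that were called were lower in 2i, with the exceptions given above. The part of feeder RNA in these differences was not tested.

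In 2 of these 29 genes the EG response was called below the ES response (6.9%, against 0.873% of all genes called in that direction and 1.44% in both), and they are named after their values were seen. Cd151, the tetraspanin that binds laminin receptors, fell by 0.39 in EG 2i lines (adjusted p = 0.00775) and was 0.21 higher in ES lines (adjusted p = 0.0711), a difference of −0.60 between responses (SE 0.13, adjusted p = 0.0302). Flna differed by −0.56 (SE 0.13, adjusted p = 0.0414).

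**Figure D4:**
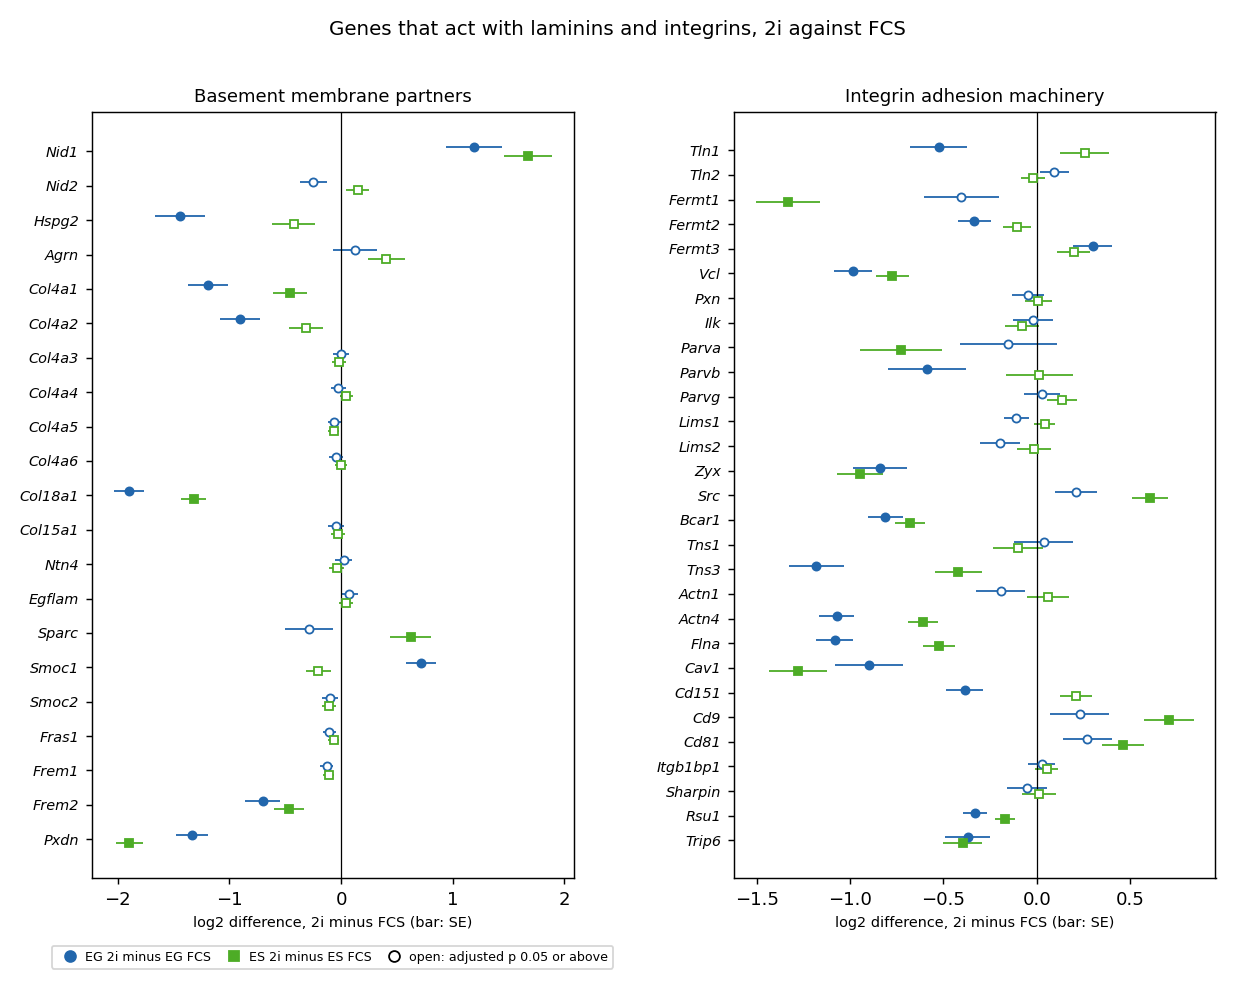
Fitted log2 difference of 2i minus FCS in EG (circles) and ES (squares) lines for 21 basement membrane partners and 29 genes of the adhesion machinery; bars are SE, and open symbols are not called. Nid1 lies to the right while Col18a1 and Pxdn lie to the left in both kinds of line, and Vcl, Zyx, Actn4, Flna, Bcar1 and Cav1 lie to the left.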

How the data were processed

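The deposited values are log2 RMA levels per probe set and array, made by the authors. They used RMA in Affymetrix Expression Console, and limma, per the submitters' processing notes, where the versions are not stated. RMA corrects background, normalizes by quantiles and summarizes probes, which limits folds near background. Of 28853 probe sets, 21789 had 1 gene symbol, 1621 several and 5443 none, and a gene took its probe set of highest mean. All 22 arrays were fitted together in limma 3.58.1 (R 4.3.3) with group, batch and sex, two-sided, with Benjamini-Hochberg adjustment over 19938 genes, and adjusted p and SE are from that fit. The fit was tested on simulated data. Values in every array are given for genes called with a log2 difference of at least 1 between 2i and FCS, or called between EG and ES lines, and for others where the groups need it. Of each partner list the genes named are those with the 3 smallest adjusted p in EG 2i and in ES lines, and marker lists are given mostly by counts and their leading genes. Members and lists were chosen with earlier results of these data known. Promoters were read from RefSeq tables in Python 3.11.15 (pandas 2.3.3), and figures were drawn in matplotlib 3.10.9. Alternatives changed 1 choice at a time. The number of arrays limits the precision, and no pair of arrays was identical (0 pairs).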

Additional observations from a re-analysis of the deposited data

Results flagged for a closer look

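Of 105 sets of 1 gene in 1 group, over the 21 genes called in any comparison of 2i with FCS, 2 had an array far from the others, and chance flags about 1 in 20 such sets. Itga11 was 4.65 in EG FCS line 1, with the nearest line at 4.77, and Itga2b was 4.91 in that line, with the nearest at 5.12. Both lie near background. The Itga6 response to 2i was tested as unequal between EG and ES lines, with a difference of −0.71.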

How the results depend on the processing

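Of 6236 alternative values, 6106 kept their side of the threshold, 96 fell below it and 34 rose above it. Direction reversed in 0 values where the main or the alternative fit made a call, and it was not compared where neither did. Of 40 calls, 16 were kept under every alternative run. The 15 calls in ES lines became 5 with batch 1 alone, while calls over all 19938 genes went from 6298 to 2460. The 3 calls between EG 2i and ES 2i lines became 1 with the 3 array sets of the labels in place of batch, 1 with batch 1 alone, 0 with only the groups compared, 1 with quantile normalization repeated and 1 with a sex term in each culture (added after seeing the data). Over all genes that comparison called 742, against 1758 without a batch term, 201 with batch 1 alone and 15 with only the groups compared. The single call for the difference of responses became 2 without a sex term and 0 with batch 1 alone, where 0 of all genes were called against 287. Leaving out each line in turn gave 6 to 10 calls for EG 2i, 8 to 12 for EG 2is, 13 to 16 for ES 2i, 1 to 3 between EG 2i and ES 2i, 1 to 4 for the difference of responses and 0 for the other 3 comparisons. Over all genes the calls in that order were 3441 to 4663, 3973 to 5059, 5546 to 6163, 301 to 872 and 110 to 390. For the other 3 they were 0 (EG 2is and EG 2i), 2 to 4 (EG and ES in FCS) and 1 to 43 (EG 2is and ES 2i). The cause of these changes was not tested. The replicate numbers do not settle pairing of ES lines, and an EG number does not mark 1 line across the 3 EG groups. Same-numbered ES lines share labelled sex and batch, while for each EG number the lines of the 3 EG groups are not all of 1 labelled sex. Same-numbered ES lines correlated at 0.05, −0.01, 0.17, 0.05 and 0.24, and 1 of 5 correlated best with its own number. With the number as a replicate block there were 9 calls for EG 2i, 9 for EG 2is, 16 for ES 2i, 0 between EG 2is and EG 2i and 1 for the difference of responses, which called 178 (ES block) and 82 (EG and ES block) of all genes. The EG and ES block called 4471 of all genes for EG 2i, 5080 for EG 2is, 6263 for ES 2i and 0 between EG 2is and EG 2i. With EG and ES numbers as the block, Itga8 was lost (adjusted p = 0.13) and Lama5 gained (−0.87, adjusted p = 0.00925) in EG 2i lines, Lama2 (0.0684), Itga2b (0.0533) and Itgal (0.0515) were lost in EG 2is lines, and Itga2 (0.0335) and Itgb3 (0.0423) were gained and Itga11 (0.0516) lost in ES lines. With ES numbers alone Itga2 was gained (0.0291). Levels near background limit the folds of Itga1 and Itga9.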
